A study of Mus musculus with 48 samples.

Results

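Neutrophils sorted from 2208L tumours were compared with neutrophils sorted from AT3 tumours, across all genes of the deposited count table. The 6 libraries, 3 from each tumour, were chosen by their titles out of 48 in the series. 2208L tumours are labelled BALB/C and AT3 tumours C57BL/6; both are transplantable mouse mammary tumours, and AT3 is known as a line derived from a tumour of an MMTV-PyMT mouse, in which a mammary promoter drives the polyoma middle T oncogene. Both groups came from tumours grown in vivo, dissociated to single cells, from which live CD45+ CD11b+ Ly6G+ cells with medium to low Ly6C were sorted. No treatment, age or number of animals is given in the labels, and nothing says that the 3 libraries of a tumour came from separate animals, so the p-values here reflect how far these libraries differ from each other, and that variation could be technical. Tumour line and strain differ together between the groups and cannot be told apart within this comparison.

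Neutrophils are short-lived granulocytes that leave the bone marrow with granules of antimicrobial proteins and with receptors for chemokines and bacterial peptides. In tumours they can take on other programmes, among them a long-lived state described in mouse lung tumours as SiglecF-high, rich in lysosomal and tissue-remodelling transcripts, and interferon-induced states. They both make and follow CXC chemokines, and their products such as prostaglandin E2, arginase and thrombospondin act on T cells and vessels.

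Total counts were 1704364 to 2829099 in 2208L neutrophils and 1344962 to 3341097 in AT3 neutrophils. Rn45s, the ribosomal RNA precursor, took 56.0% to 58.1% of them in 2208L and 53.0% to 70.3% in AT3 libraries, which left 750741 to 1185233 and 632490 to 993686 counts. Olfactory and vomeronasal receptor genes, which neutrophils are not known to transcribe, served as a measure of background. Levels are given as CPM, counts scaled by library size. The receptor genes took 3875 to 6085 CPM of the counts outside Rn45s in 2208L and 6374 to 12660 in AT3 libraries. Genes above background, those with at least 10 times the level per exon base of the receptor genes, held 54.3% to 59.4% of the counts in 2208L libraries, and 38.0%, 63.0% and 52.1% in AT3 neutrophils 1, 2 and 3. The AT3 libraries thus spread more widely. AT3 neutrophil 1 had the lowest share, and AT3 neutrophil 2 the lowest receptor level (6374 CPM) and the highest Rn45s share (70.3%) of the AT3 libraries. Neutrophil identity genes summed to 17330 to 22280 CPM in 2208L neutrophils and 19170 to 44330 in AT3 neutrophils, against 3429 to 3958 in 2208L macrophages and 4936 to 5660 in AT3 macrophages, so both groups carried the labelled cell type's transcripts. Ly6g, the gene of the sort marker, has no line in the table. Macrophage markers were present too, at 8408 to 10720 CPM in 2208L neutrophils and 4011 to 6418 in AT3 neutrophils, and every marker of that list had counts.

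Among 17202 genes tested, 770 were higher in 2208L neutrophils (4.48% of the genes tested) and 586 were lower (3.41%) at an adjusted p below 0.05. The test was edgeR's quasi-likelihood test with Benjamini-Hochberg adjustment, with levels scaled by trimmed-mean (TMM) factors. The groups did not overlap for 4000 genes, 1280 of them among the 1356 that passed. The split between directions depended on the scaling. The usual factors rest mostly on genes at background, and on that scale the median difference was -0.06 log2 over all genes and 0.30 over the 2853 genes above background. With factors taken from genes above background the differences shifted by a median of -0.40 log2, by unlike amounts from gene to gene. On that scale 259 genes were higher (1.51%) and 607 lower (3.53%). 237 genes were called higher and 463 lower on both scales. Of the 2853 genes above background, 347 were higher and 129 lower on the usual scale, and 197 higher and 217 lower on the other. Lists whose members lie mostly above background are to be read against these counts and the median of 0.30 log2. CPM and log2 differences below are on the usual scale unless said otherwise, each log2 difference with its SE, and lists are given on both.

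The counts also rested on single libraries. Higher and lower calls numbered 526 and 316 without 2208L neutrophil 1, 349 and 224 without 2208L neutrophil 2, and 529 and 315 without 2208L neutrophil 3. They numbered 824 and 649 without AT3 neutrophil 1, 1775 and 1333 without AT3 neutrophil 2, and 471 and 369 without AT3 neutrophil 3. Of the 136 passing genes checked one by one, those named by rule, list markers and the chromosome 6 genes, 92 passed in every one of these 6 fits.

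Among passing genes with a mean log2 CPM of at least 5, a level at least 10 times background and no overlap between groups, the 12 with the largest higher differences were H19, H2-Ea-ps, Met, Igfbp5, Wfdc18, Nkd2, Mfge8, Lsm8, Trf, Cav2, Gatm and Eno1b, and the 12 lower ones S100a4, Thbs1, Pf4, Sirpb1b, Rdh12, Trim30d, Retnlg, S100a8, Ccl9, Ccl6, Col3a1 and Cxcl3. All of these passed on both scales, and all but S100a8 passed with any 1 of the 6 libraries left out. Eno1b is a near-identical copy of the enolase gene Eno1, and Sirpb1b and Trim30d belong to clusters of close paralogs, so reads may have been shared between copies there.

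**Figure D1:**
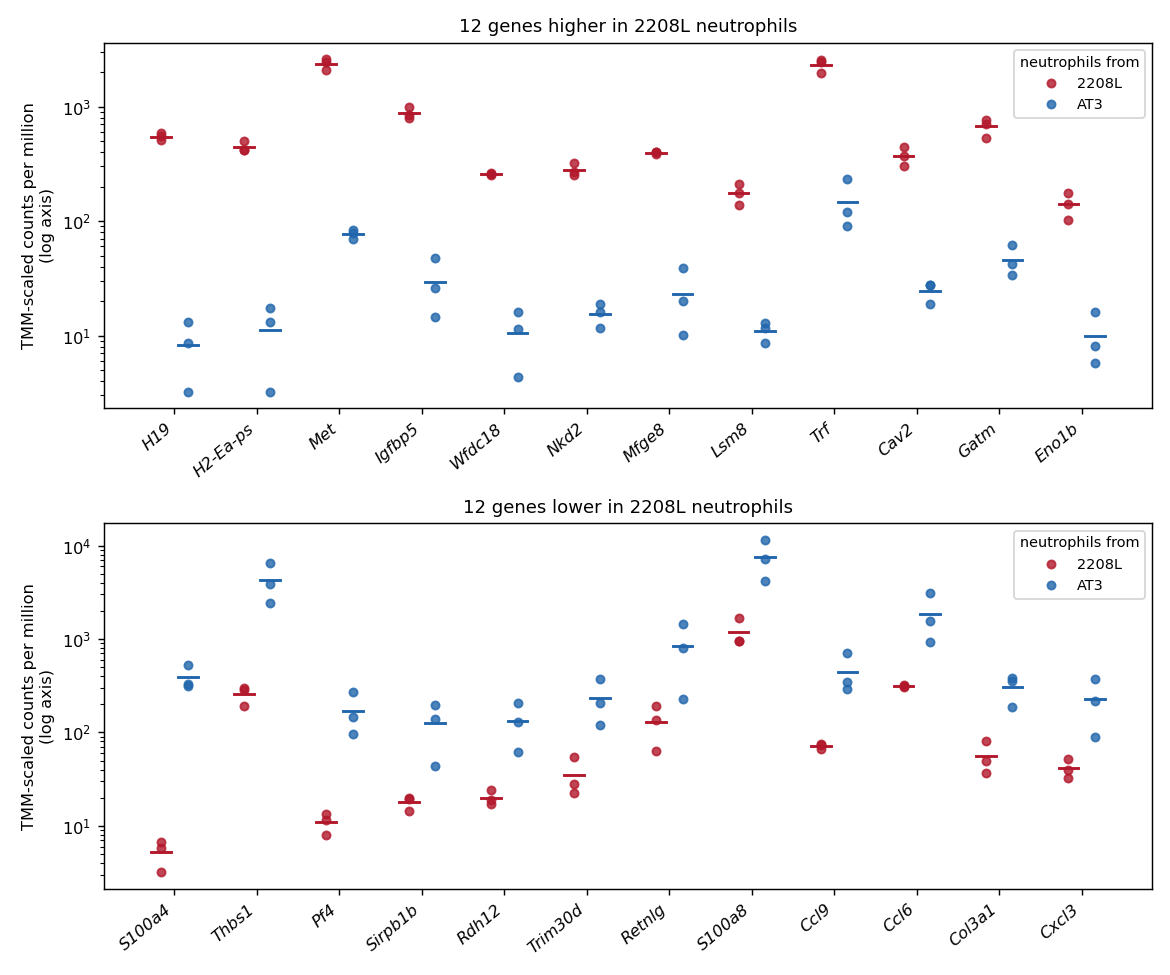
TMM-scaled CPM on a log axis for the 12 genes with the largest higher and the 12 with the largest lower differences among passing genes with a mean log2 CPM of at least 5, at least 10 times background and no overlap; points are libraries, bars are means of 3, with 2208L left of AT3 for each gene. The 2208L libraries of H19 lie between 507 and 582 CPM and the AT3 libraries between 3.24 and 13 CPM, and the limit on overlap holds for every gene shown.

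H19, an imprinted non-coding RNA of fetal and tumour tissues (chr7:142575529-142578143, mm10), had 552, 582 and 507 CPM in 2208L neutrophils and 8.66, 13 and 3.24 CPM in AT3 neutrophils. All 2208L libraries were high and the groups lay far apart, a difference of 5.99 ± 0.42 log2 (adjusted p = 2.82e-12). Met, the receptor tyrosine kinase for hepatocyte growth factor (chr6:17463800-17573980), had 2065, 2586 and 2454 CPM in 2208L and 77.9, 83.9 and 69.6 CPM in AT3 neutrophils. Within each group the 3 Met values were close, and the difference was 4.94 ± 0.46 log2 (adjusted p = 1.76e-09). Transferrin (Trf), the iron carrier, had 1970, 2543 and 2439 CPM in 2208L and 90.9, 233 and 120 CPM in AT3 neutrophils, which did not overlap (3.97 ± 0.46 log2, adjusted p = 1.39e-07). Igfbp5, a secreted binder of insulin-like growth factors, averaged 872 ± 99.4 CPM in 2208L and 29.3 ± 16.8 in AT3 (SD, n = 3 each). Wfdc18, a secreted proteinase inhibitor gene known from the mammary gland, averaged 258 ± 6.47 CPM in 2208L and 10.5 ± 5.83 in AT3. Mfge8, the milk fat globule protein that bridges phagocytes to dying cells, averaged 395 ± 10.8 CPM in 2208L and 23.1 ± 14.6 in AT3.

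Met was part of a stretch of chromosome 6 in which neighbouring genes were higher together. Between Tes and Wasl (chr6:17065149-24665009, mm10) 19 of the 27 genes tested were higher in 2208L neutrophils and 0 lower, with a median difference of 2.10 log2, against 4.48% of all genes called higher and a median of -0.06. With factors from genes above background 14 of them passed as higher. The stretch was chosen after values were seen. Its members included the caveolin gene Cav2 (3.90 ± 0.32), the actin-capping subunit Capza2 (2.94), the chloride channel gene Cftr (2.4), the splicing factor gene Lsm8 (3.97 ± 0.33), the secreted Fam3c (3.06) and the actin regulator Wasl (2.78), in log2 units. Cav1, between Cav2 and Met, did not pass (0.07 log2, adjusted p = 0.907). Genes of the stretch with levels below 10 times background, such as the transcription factor gene Fezf1 (2.56 log2) and the germ-cell gene Asz1 (1.80 log2, which did not pass with factors from genes above background), were among those higher. In macrophages of the same tumours 21 of the 27 were higher and 0 lower (adjusted p below 0.05), against 5.68% of 19056 genes called higher and 4.3% called lower in macrophages. In the cultured lines, 22 of the 27 had a higher mean level in 2208L than in AT3 cells, and the share over all genes was not computed for the lines.

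**Figure D2:**
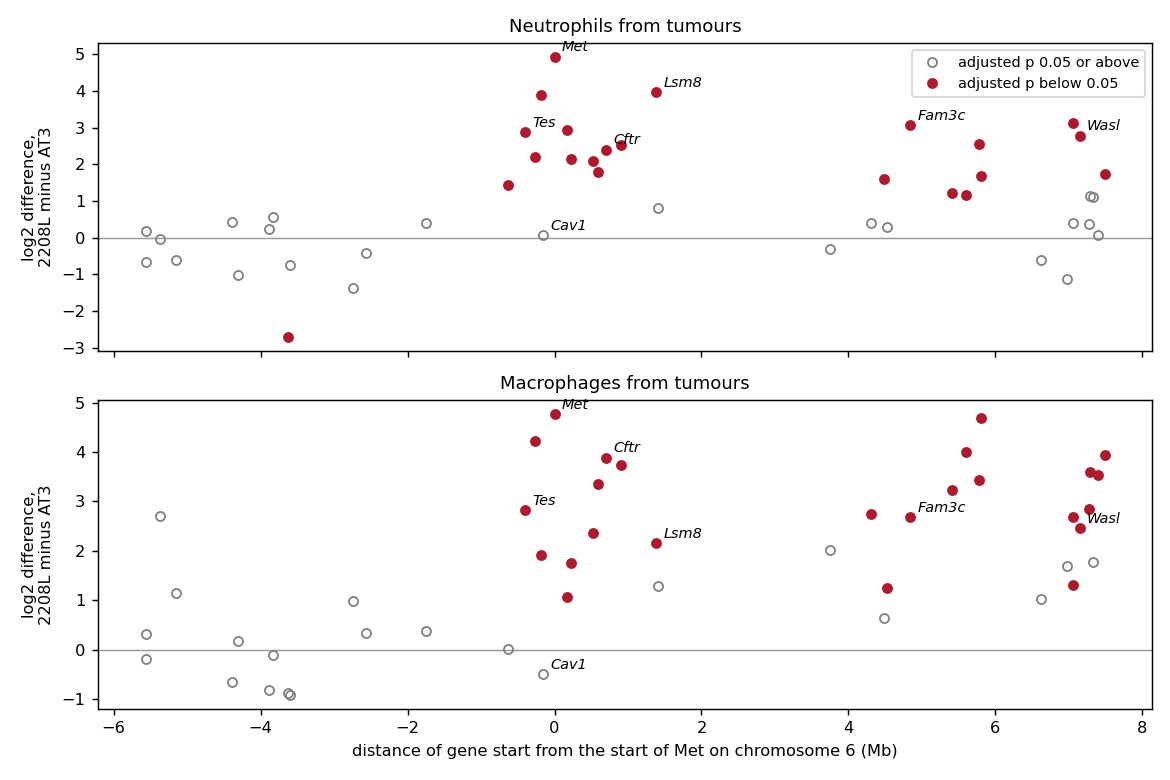
Log2 difference, 2208L minus AT3, of each gene tested within 8 Mb of Met, in neutrophils and in macrophages, against the distance of its start from the start of Met; filled points have an adjusted p below 0.05. From Tes at -0.40 Mb to Wasl at 7.15 Mb 19 of 27 genes are filled and above 0 in neutrophils, and Cav1 is not.

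Epithelial genes were higher as well. 12 of the 16 tumour epithelial markers tested were higher in 2208L neutrophils and 0 lower (7 and 0 with factors from genes above background), with a median of 2.05 log2 against -0.06 over all genes. Only 4 of the 16 markers were above background, and these 4 were higher. Krt18, a keratin of simple epithelia, had 215, 178 and 222 CPM in 2208L and 10.1, 27.5 and 19.4 CPM in AT3 neutrophils (3.42 ± 0.31 log2, adjusted p = 1.03e-09). Krt8, its partner, had 136, 132 and 109 CPM in 2208L and 18.8, 7.23 and 6.48 CPM in AT3 neutrophils. Cldn3, a tight-junction claudin, had 96 counts over the 2208L libraries and none in any AT3 library, so it was at least 26.2-fold higher in 2208L, taking 3 counts over the AT3 group as the limit that a count of 0 allows. The summed level of the list was 907 to 1011 CPM in 2208L neutrophils and 188 to 455 in AT3 neutrophils. Relative to cultured 2208L cells, the markers' level in 2208L neutrophils had a median of 26% and ran from 4.6% to 541%. Leaving out 1 library gave 10 to 12 higher, with the lowest count without 2208L neutrophil 1 or 2. In bulk libraries a change in the share of cells of a type and a change in RNA per cell cannot be told apart.

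The cultured line did not carry all of the 2208L genes. Scaled to counts outside Rn45s, H19 averaged 438 ± 19.8 CPM in 2208L neutrophils, 229 ± 57.6 in 2208L macrophages and 0.578 ± 0.557 in cultured 2208L cells, and 7.13 ± 3.71, 2.13 ± 2.38 and 1.04 ± 0.718 in AT3 neutrophils, macrophages and cultured cells (SD, n = 3 each). Igfbp5 averaged 702 ± 110 CPM in 2208L neutrophils, 402 ± 124 in 2208L macrophages and 4.03 ± 0.256 in cultured 2208L cells. Met, by contrast, averaged 1897 ± 168 CPM in 2208L neutrophils, 1020 ± 196 in 2208L macrophages and 5022 ± 48.4 in the culture. Trf reached 1855 ± 201 CPM in 2208L neutrophils and 1980 ± 630 in 2208L macrophages, with 5.06 ± 1.20 in the cultured line. Of the 347 genes above background called higher, 25.1% had a higher mean level in cultured 2208L cells than in 2208L neutrophils; of the 129 called lower, 22.5% had a higher mean level in cultured AT3 cells than in AT3 neutrophils. The same share was not computed over all genes above background, so these percentages do not say whether called genes differ from others in this. The part of tumour or other non-neutrophil RNA in these differences was not tested.

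**Figure D3:**
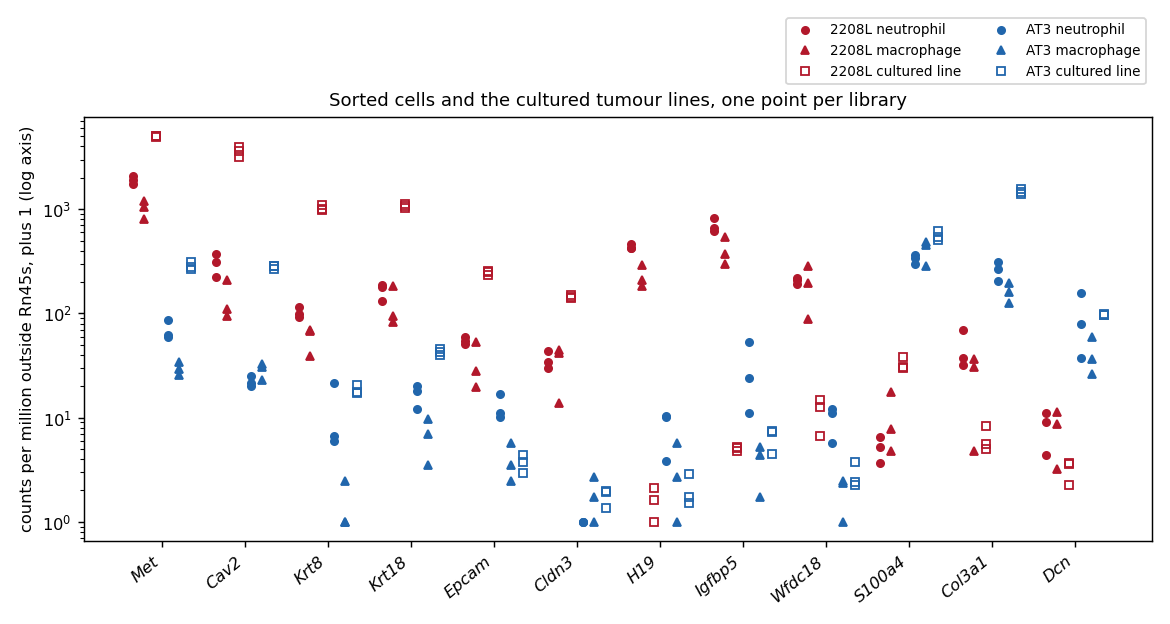
CPM outside Rn45s, plus 1, on a log axis, for 12 genes in neutrophils, macrophages and cultured cells of 2208L and of AT3, one point per library. Met is highest in cultured 2208L cells at 5022 CPM on average, whereas H19 averages 438 CPM in 2208L neutrophils and 0.578 CPM in the culture; S100a4 averages 333 CPM in AT3 neutrophils and 556 CPM in cultured AT3 cells.

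S100a4, a small calcium-binding protein of motile and mesenchymal cells (chr3:90603771-90606045), had the largest difference of the 12 lower genes. It had 6.64, 5.74 and 3.17 CPM in 2208L and 310.2, 525 and 334 CPM in AT3 neutrophils. The 2208L values were near 0 and the groups did not overlap (-6.15 ± 0.43 log2, adjusted p = 2.82e-12). The gene was as low in 2208L macrophages (-5.97 ± 0.46 log2). Scaled to counts outside Rn45s it averaged 4.15 ± 1.45 CPM in 2208L and 333 ± 36.0 in AT3 neutrophils, with 32.1 ± 4.55 in cultured 2208L and 556 ± 55.5 in cultured AT3 cells. Thbs1, which encodes the matrix protein thrombospondin-1 (chr2:118111876-118127133), had 193, 284 and 300 CPM in 2208L and 2407, 6538 and 3858 CPM in AT3 neutrophils (-4.04 ± 0.56 log2, adjusted p = 5.17e-06). For Thbs1 the cultured lines ran the other way, at 2966 ± 180 CPM in 2208L and 70.3 ± 3.83 in AT3 cells, beside 207 ± 45.3 in 2208L and 3530 ± 962 in AT3 neutrophils.

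Fibroblast markers fell in part: 5 of 12 tested were lower and 0 higher on both scales, with a median of -0.21 log2. Only 2 of the 12 were above background, and these 2 were lower. Col3a1, a fibrillar collagen, had 37.2, 49.3 and 80.9 CPM in 2208L and 186, 382 and 351 CPM in AT3 neutrophils (-2.47 ± 0.33 log2). Its level was 5.34 ± 1.75 CPM in cultured 2208L cells and 1478 ± 80.9 CPM in cultured AT3 cells, scaled to counts outside Rn45s. Col3a1 does not stand for the list here. Relative to cultured AT3 cells, the level of the 12 markers in AT3 neutrophils had a median of 291% and ran from 17.6% to 1211%. The proteoglycan genes Dcn (-3.62 log2) and Lum (-2.62 log2) were lower too. Leaving out 1 library gave 4 or 5 lower, the smaller number without any 1 of the 2208L libraries. The list summed to 437 to 618 CPM in 2208L and 785 to 1041 in AT3 neutrophils, and the part of fibroblast or tumour RNA was not tested. Among 25 angiogenesis and matrix genes tested, 3 were higher and 4 lower (3 and 5 on the other scale; median -0.23 log2). Plau, the urokinase protease, was higher (1.86 log2) and the matrix gene Ecm1 lower (-1.39 log2). The metalloprotease gene Adam8 was lower (-1.89 log2), but not without 2208L neutrophil 1 or 3 (adjusted p up to 0.0699). Vegfa, the vascular growth factor, did not pass (169, 195 and 176 CPM in 2208L, 64.9, 262 and 139 CPM in AT3; adjusted p = 0.721), but did as higher without AT3 neutrophil 2 (adjusted p = 0.0407).

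Several transcripts that define neutrophils were lower in 2208L. Of 27 neutrophil identity genes 6 were lower and 1 higher, with a median of -0.47 log2. With factors from genes above background 11 were lower and 1 higher. S100a8, a subunit of the calprotectin stored in neutrophil cytosol (chr3:90668978-90670035), had 957, 1694 and 945 CPM in 2208L and 4197, 11430 and 7233 CPM in AT3 neutrophils. The AT3 values spread widely but stayed above all 2208L values (-2.67 ± 0.62 log2, adjusted p = 0.00551). Without 2208L neutrophil 1 or 3 it no longer passed (adjusted p up to 0.0658), and with factors from genes above background the adjusted p was 4.06e-08. Its partner S100a9 had 2896, 4917 and 2925 CPM in 2208L and 3629, 12630 and 8190 CPM in AT3, which overlapped and did not pass (adjusted p = 0.262; 0.00178 on the other scale). The resistin-like Retnlg was lower (-2.68 ± 0.47 log2, adjusted p = 0.000193), as was the protease inhibitor Slpi (-1.85 ± 0.38 log2). Ifitm1, an interferon-induced membrane protein gene, was lower by the test (-2.08 log2) but not without 2208L neutrophil 1 or 3 (adjusted p up to 0.0722). The growth factor receptor gene Csf3r had 2723, 4357 and 2963 CPM in 2208L and 1189, 5379 and 3610 CPM in AT3, and Cxcr2, the chemokine receptor, 740, 1121 and 763 CPM in 2208L and 573, 2475 and 1442 CPM in AT3. Neither passed on the usual scale (adjusted p = 0.988 and 0.322), while Cxcr2 passed as lower on the other (adjusted p = 0.0276). Leaving out 1 library gave 3 to 8 lower members, fewest without 2208L neutrophil 1 or 3 and most without AT3 neutrophil 1.

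Granule genes did not move as one. The iron-binding Lcn2 had 1346, 1432 and 1397 CPM in 2208L and 131, 639 and 199 CPM in AT3 neutrophils, far apart (2.10 ± 0.46 log2, adjusted p = 0.00257). Lactoferrin, Ltf, was higher as well (2.04 ± 0.28 log2), at 130.2, 156 and 132 CPM in 2208L and 28.9, 42.0 and 30.8 CPM in AT3. Lcn2 was also transcribed in cultured 2208L cells, at 317 ± 34 CPM outside Rn45s, against 2.34 ± 0.814 in cultured AT3 cells. Chil3, a chitinase-like secreted protein gene, was lower (-2.14 ± 0.39 log2). In all, 2 of the 16 secondary and tertiary granule genes were higher and 2 lower on both scales (median -0.23 log2), and Mmp9, the gelatinase, did not pass (629, 1153 and 674 CPM in 2208L, 152, 845 and 437 CPM in AT3). None of the 5 primary granule genes tested passed on either scale, with a median of -0.38 log2. Of 12 oxidase and killing genes 2 were higher (1 on the other scale; median 0.33 log2), catalase (Cat, 1.30 log2; it did not pass on the other scale) and the oxidase subunit Ncf4 (1.25 log2), and Ncf4 did not pass without 2208L neutrophil 2 or AT3 neutrophil 3 (adjusted p up to 0.155).

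The CC chemokine genes Ccl6 and Ccl9 and the CXC chemokine gene Cxcl3 were lower in 2208L neutrophils, and the cytokine genes Il1a and Tnf were higher. Ccl6, a CC chemokine of myeloid cells, had 314, 322 and 303 CPM in 2208L and 923, 3111 and 1538 CPM in AT3 neutrophils (-2.57 ± 0.46 log2, adjusted p = 0.000244). Ccl9, its neighbour in the genome, followed at -2.63 ± 0.35 log2. Cxcl3, a ligand of Cxcr2, had 51.8, 32.1 and 39.6 CPM in 2208L and 89.5, 376 and 217 CPM in AT3 (-2.46 ± 0.40 log2, adjusted p = 6.36e-05). The platelet chemokine genes Pf4 (-3.92 ± 0.40 log2) and Ppbp (-3.58 log2) were lower, and they were the only genes of the red cell and platelet list that passed. That list summed to 50.6 to 70.0 CPM in 2208L and 156 to 331 in AT3 neutrophils. In macrophages it summed to 35.9 to 78.1 CPM in 2208L and 303 to 428 in AT3. The part of platelet or macrophage RNA was not tested. Ltb4r1, a leukotriene B4 receptor, and Alox5ap, which serves leukotriene synthesis, were lower (-1.83 and -1.89 log2); Ltb4r1 did not pass without AT3 neutrophil 2 (adjusted p = 0.0622). Cxcl2 had 1114, 1226 and 859 CPM in 2208L and 1137, 3936 and 2909 CPM in AT3 (adjusted p = 0.0966).

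On the higher side, Il1a, an alarmin of the interleukin-1 family, had 359, 388 and 373 CPM in 2208L and 17.3, 85.3 and 64.8 CPM in AT3 neutrophils (2.74 ± 0.36 log2, adjusted p = 2.16e-06). Tnf had 175, 141 and 132 CPM in 2208L and 28.9, 86.8 and 45.3 CPM in AT3 (1.47 ± 0.31 log2, adjusted p = 0.00181). Ccrl2, a chemerin-binding receptor, had 1208, 1529 and 1164 CPM in 2208L and 117, 443 and 295 CPM in AT3, with no overlap (2.19 ± 0.43 log2, adjusted p = 0.000911). Icam1, an adhesion molecule induced by NF-kB, was higher (1.66 ± 0.32 log2), and Tnfaip3, an NF-kB inhibitor, was too (1.36 log2), though not without 2208L neutrophil 2 (adjusted p = 0.0736). Osm, a cytokine of the interleukin-6 family, was lower (-1.34 log2, adjusted p = 0.0388) but passed in only 1 of the 6 leave-one-out fits. By list, 4 of 24 interleukin-1 and NF-kB genes were higher and 0 lower (4 and 1 on the other scale; median 0.19 log2). Of 12 neutrophil-attracting ligands and mediators 2 were higher and 4 lower (2 and 5; median 0.27 log2). Of 18 other chemokines and receptors 3 were higher and 5 lower (2 and 5; median -0.20 log2). Il1b itself had 6863, 9989 and 6742 CPM in 2208L and 2529, 10240 and 7881 CPM in AT3 neutrophils, which overlapped (adjusted p = 0.889; its sign turned with factors from genes above background).

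**Figure D4:**
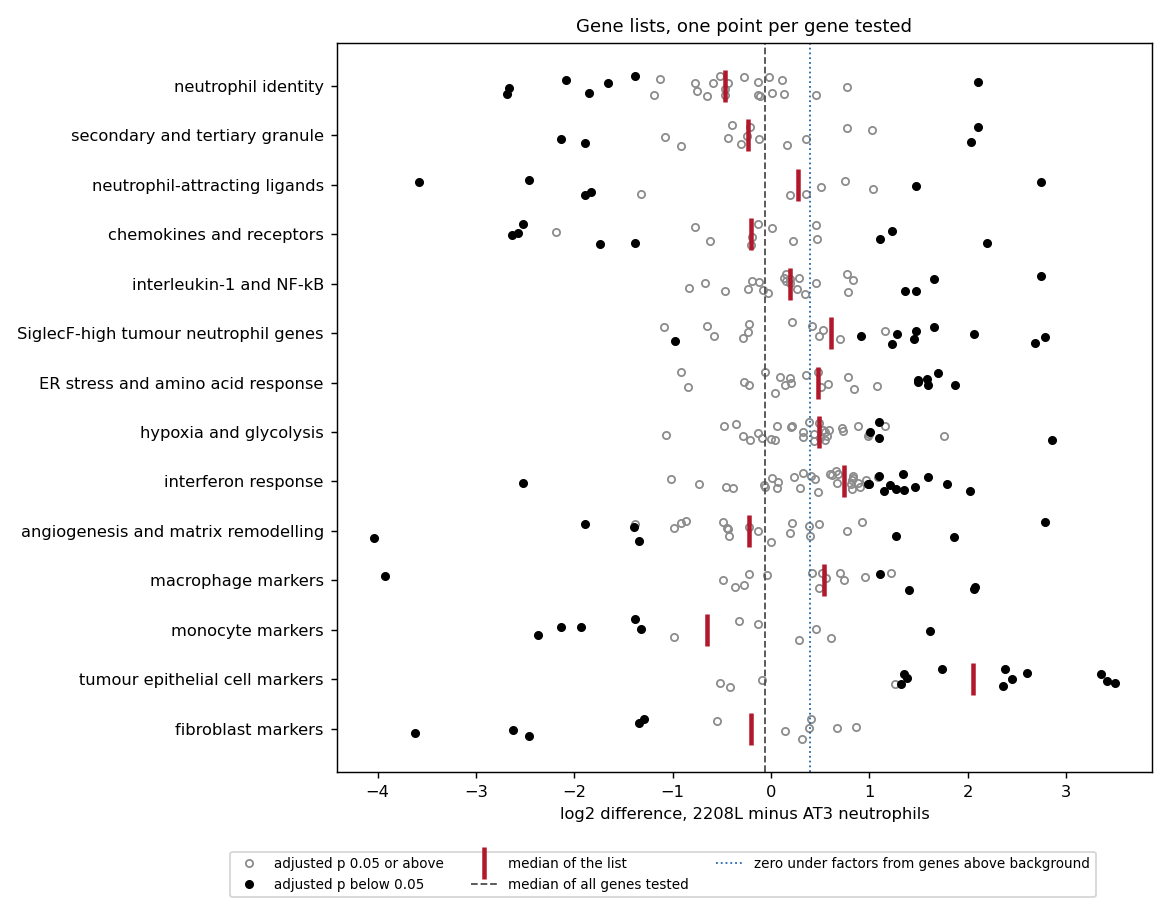
Log2 difference, 2208L minus AT3 neutrophils, of each gene tested in 14 lists. Filled points have an adjusted p below 0.05, and red bars are list medians. The dashed line marks the median of all genes (-0.06). The dotted line marks the zero of the scale set by genes above background, placed by the median shift between the scales. Cldn3, at 0 counts in AT3, is not drawn. Tumour epithelial markers lie furthest right, with a median of 2.05, and monocyte markers furthest left, with a median of -0.66.

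Genes described in SiglecF-high tumour neutrophils were higher more often than lower: 9 of 22 were higher and 1 lower (9 and 2 on the other scale), with a median of 0.61 log2 against -0.06 over all genes. Of the 22 genes, 19 were above background, where the median was 0.30 log2 and 347 of 2853 genes were higher. Spp1, the secreted phosphoprotein osteopontin, had 3341, 4194 and 2578 CPM in 2208L and 352, 723 and 387 CPM in AT3 neutrophils. Every 2208L value was several times every AT3 value (2.79 ± 0.49 log2, adjusted p = 0.000246). The lysosomal protease Lgmn had 1438, 1739 and 1305 CPM in 2208L and 345, 470.1 and 254 CPM in AT3 (2.07 ± 0.42 log2). Siglecf, the gene that gives the state its name (Siglec5 in the table), had 211, 349.9 and 227 CPM in 2208L and 46.2, 120.1 and 123 CPM in AT3 (1.45 ± 0.32 log2, adjusted p = 0.00268). It also marks eosinophils, and the other 4 eosinophil markers tested did not pass; that list summed to 282 to 325 CPM in 2208L and 138 to 261 in AT3. The actin-capping gene Capg was the lower member (-0.98 log2) and did not pass without any 1 of the 2208L libraries or AT3 neutrophil 2 or 3 (adjusted p up to 0.182). Leaving out 1 library gave 6 to 12 higher members, fewest without 2208L neutrophil 1, 2208L neutrophil 2 or AT3 neutrophil 3 and most without AT3 neutrophil 2.

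Macrophage and monocyte transcripts moved beside these. Of 18 macrophage markers 4 were higher and 1 lower (2 and 1 on the other scale; median 0.54 log2), and Lgmn is among them. Sepp1, the selenium transporter, had 1352, 1540 and 1403 CPM in 2208L and 335, 429.6 and 256 CPM in AT3 neutrophils (2.07 ± 0.40 log2, adjusted p = 0.000613). The complement gene C1qa was higher (1.40 log2), but not without any 1 of the 2208L libraries or AT3 neutrophil 3 (adjusted p up to 0.167) nor on the other scale. Measured against macrophages of the same tumour, the markers' median level was 35.3% in 2208L neutrophils and 26.2% in AT3 neutrophils. Of 12 monocyte markers 5 were lower and 1 higher (5 and 0; median -0.66 log2), among them Vcan (-1.93 log2), the chemokine receptor gene Ccr2 (-1.38 log2) and Ly6c2 (-2.38 log2), which encodes the other antigen of the gate. Of the 5 lower monocyte markers 2 were above background. The monocyte markers summed to 4325 to 5268 CPM in 2208L and 5690 to 6221 in AT3 neutrophils. The part of macrophage and monocyte RNA in the SiglecF-high list was not tested.

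Interferon-induced genes were higher in part. Of 42 tested, 12 were higher and 1 lower (10 and 3 on the other scale), with a median of 0.74 log2 against -0.06 over all genes, and 8 of the 12 were above background. In all, 31 of the 42 were above background, where the median was 0.30 log2 and 347 of 2853 genes were higher. The GTPase gene Irgm1 had 91.7, 150.3 and 128 CPM in 2208L and 20.2, 55.0 and 14.6 CPM in AT3 neutrophils (2.03 ± 0.39 log2, adjusted p = 0.000613). Ifih1, the cytosolic sensor of long double-stranded RNA, had 117, 239.8 and 193 CPM in 2208L and 59.1, 70.9 and 69.6 CPM in AT3 (1.46 ± 0.31 log2, adjusted p = 0.00215). Ifi44 (1.79 ± 0.31 log2) and Ifit2 (1.59 ± 0.31 log2), both classical interferon-induced genes, were higher with no overlap. Cxcl9, a T-cell chemokine induced by interferon gamma, was the lower member: 15.9, 17.2 and 7.93 CPM in 2208L and 33.2, 171 and 38.9 CPM in AT3 (-2.52 ± 0.46 log2, adjusted p = 0.000384). The number of higher members ran from 4 without 2208L neutrophil 2 to 24 without AT3 neutrophil 2.

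Many promoters of interferon-induced genes are known to hold interferon-stimulated response elements. The letters GAAANNGAAA were searched on both strands in RefSeq promoters (GRCm38.p6, 250 bases before to 50 after the start), where overlapping copies count as one stretch. They were present in 3.83% of the 13346 tested genes with a promoter entry and in 55.9% of the 34 interferon genes with one. They were in 6 of the 11 such genes that were higher and in 13 of the 23 that were not called higher. The promoters of Irgm1 and Ifih1, whose calls held in all 6 leave-one-out fits, and of Ifit1, with copies at separate places, are shown with the matching bases in capitals, and a match is a description of these letters, not a measured site.
Irgm1, chr11:48871371-48871670, minus strand: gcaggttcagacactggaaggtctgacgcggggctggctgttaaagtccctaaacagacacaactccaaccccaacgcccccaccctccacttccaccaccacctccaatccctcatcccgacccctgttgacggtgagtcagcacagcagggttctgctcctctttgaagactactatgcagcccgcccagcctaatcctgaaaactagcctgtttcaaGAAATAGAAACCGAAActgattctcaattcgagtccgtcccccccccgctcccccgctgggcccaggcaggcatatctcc
Ifih1, chr2:62646206-62646505, minus strand: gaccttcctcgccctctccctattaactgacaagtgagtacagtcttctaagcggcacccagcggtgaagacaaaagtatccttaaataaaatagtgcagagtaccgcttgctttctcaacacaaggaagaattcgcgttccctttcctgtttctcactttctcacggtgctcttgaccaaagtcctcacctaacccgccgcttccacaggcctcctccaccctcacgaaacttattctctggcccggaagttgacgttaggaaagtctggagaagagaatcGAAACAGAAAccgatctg
Ifit1, chr19:34640639-34640938, plus strand: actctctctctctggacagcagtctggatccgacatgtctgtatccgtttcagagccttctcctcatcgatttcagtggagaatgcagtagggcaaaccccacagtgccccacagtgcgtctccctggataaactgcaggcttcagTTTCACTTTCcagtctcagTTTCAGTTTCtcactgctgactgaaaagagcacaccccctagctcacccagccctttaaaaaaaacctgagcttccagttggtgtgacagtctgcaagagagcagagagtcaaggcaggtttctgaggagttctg
Ifit1, a translation inhibitor of viral RNA, had 282, 459 and 296 CPM in 2208L and 54.8, 204 and 191 CPM in AT3 neutrophils (1.21 log2, adjusted p = 0.0472). Its matches stand on the opposite strand, as TTTC repeats, whereas those of Irgm1 and Ifih1 stand on the gene's own strand.

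Of 23 genes of endoplasmic reticulum stress and the amino acid response, 6 were higher, 0 lower and 17 did not pass (5 higher and 2 lower on the other scale; median 0.48 log2). Hspa5, the main chaperone of that compartment, had 1150, 1187 and 908 CPM in 2208L and 231, 485 and 285 CPM in AT3 neutrophils (1.70 ± 0.39 log2, adjusted p = 0.00481). The disulphide isomerases Pdia6 (1.87 ± 0.32 log2) and Pdia4 (1.58 log2) and the chaperone Hsp90b1 (1.6 log2) were higher with it, each in every leave-one-out fit. Of 35 hypoxia and glycolysis genes 4 were higher and 0 lower (4 and 1; median 0.49 log2), led by Ndrg1, a gene induced in low oxygen: 824, 982 and 839 CPM in 2208L and 102, 169 and 93.9 CPM in AT3 neutrophils (2.85 ± 0.37 log2, adjusted p = 1.94e-06). Of the 35 hypoxia and glycolysis genes, 29 were above background. Among all 2853 genes above background 347 were higher, with a median of 0.30 log2. The count of higher hypoxia genes was 1 without 2208L neutrophil 2 or 3 and 20 without AT3 neutrophil 2. Of 25 lipid genes 2 were higher and 0 lower on both scales (median 0.66 log2), with 1 higher without 2208L neutrophil 2 and 11 without AT3 neutrophil 2. Scd1, the stearoyl-CoA desaturase, had 352, 491 and 433 CPM in 2208L and 27.4, 49.2 and 53.4 CPM in AT3 (3.29 ± 0.38 log2, adjusted p = 1.93e-07).

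Of 27 suppression and checkpoint genes 1 was higher and 3 lower (1 and 5 on the other scale; median -0.23 log2). Arginase 1 (Arg1) had 110.3, 184 and 102 CPM in 2208L and 291, 439.7 and 241 CPM in AT3 neutrophils (-1.29 ± 0.36 log2, adjusted p = 0.0205), and it did not pass without 2208L neutrophil 1 or 3 (adjusted p up to 0.124). The ligand gene Cd274 (PD-L1) had 667, 827 and 929 CPM in 2208L and 136, 1030 and 455 CPM in AT3, and Nos2, the inducible nitric oxide synthase, 251, 439 and 265 CPM in 2208L and 85.1, 472 and 95.5 CPM in AT3, and neither passed (adjusted p = 0.443 and 0.419). Ptgs2, the prostaglandin synthase, had 2156, 2004 and 1752 CPM in 2208L and 1076, 5000 and 3324 CPM in AT3 (adjusted p = 0.458; 0.0353 and lower on the other scale). Among immediate early genes 4 of 27 were higher and 2 lower (2 and 4; median -0.24 log2), with the transcription factor gene Egr3 highest (2.66 ± 0.37 log2). Of 17 Fc and complement genes 3 were higher and 1 lower (2 and 4; median 0.15 log2), among them Cfb, a complement protease (2.27 ± 0.30 log2), and the integrin gene Itgax (1.77 ± 0.38 log2). Of 26 pattern recognition genes 3 were higher and 0 lower (4 and 4; median 0.07 log2), among them the adaptor gene Myd88 (1.79 log2) and Tlr9 (1.72 log2). Mki67, the proliferation marker, had 552, 549.5 and 509 CPM in 2208L and 164, 208 and 191 CPM in AT3 neutrophils (1.51 ± 0.32 log2), with 2 of 21 proliferation genes higher (1 on the other scale; median 0.28 log2). Cultured cells carried Mki67 at 721 ± 33.3 CPM in 2208L and 660 ± 1.83 CPM in AT3, outside Rn45s. Of 25 myeloid transcription factors 1 was higher and 1 lower (1 and 4; median -0.24 log2), Nfe2 being the lower one (-1.89 log2). None of 21 survival genes passed on the usual scale, and 2 were lower on the other (median 0.01 log2). Genes above background numbered 19 of 27 for suppression and checkpoint, 22 of 27 for immediate early and 15 of 17 for Fc and complement. They numbered 21 of 26 for pattern recognition, 18 of 25 for transcription factors, 13 of 21 for survival and 4 of 21 for proliferation. Among all 2853 genes above background 347 were higher and 129 lower, with a median of 0.30 log2. Over all genes tested 4.48% were higher and 3.41% lower. The list counts also rested on single libraries. Without AT3 neutrophil 2 the higher members numbered 9 for suppression and checkpoint, 6 for survival, 6 for transcription factors, 7 for immediate early, 6 for pattern recognition, 5 for Fc and complement and 4 for proliferation genes. Without 2208L neutrophil 2 they numbered 0 for suppression and checkpoint and for transcription factors and 1 for immediate early genes. The lower suppression and checkpoint members numbered 0 without 2208L neutrophil 3 and 6 without AT3 neutrophil 1.

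The series holds a second pair of neutrophil groups in which a BALB/C tumour, T11, can be set against a C57BL/6 tumour, E0771, with no library shared; E0771 neutrophil 1 is labelled BALB/C. In that pair 82 genes were higher in T11 (0.477%) and 499 lower (2.9%). Of the genes called in 2208L against AT3, 10 of the higher and 86 of the lower ones were called the same way there, which is 1.3% of the 2208L calls and 12.2% of the T11 calls for the higher ones, and 14.7% and 17.2% for the lower ones. The calls ran the other way for 36 of the genes higher in 2208L and 3 of the lower ones. H2-Ea-ps, the MHC class II E alpha gene that C57BL/6 mice are known not to transcribe (chr17:34341959-34344645), had 419, 499 and 420.2 CPM in 2208L and 17.3, 13 and 3.24 CPM in AT3 neutrophils (5.27 ± 0.52 log2, adjusted p = 5.48e-09). In T11 against E0771 neutrophils it differed by 3.08 log2 (adjusted p = 0.000972). Ifi202b, an interferon-inducible DNA sensor gene known to vary between mouse strains, was higher in both pairs, by 1.81 log2 in 2208L and 2.30 log2 in T11. In 2208L against AT3, Ifi202b did not pass with factors from genes above background. Thbs1 (-3.14 log2 in T11 against E0771), Pf4 (-4.10), Sirpb1b (-3.26), Trim30d (-2.64), Retnlg (-1.65), S100a8 (-2.17), Ccl6 (-1.74) and Ccl9 (-1.30) were lower there too, each with an adjusted p below 0.05.

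The test of the difference between the 2 pairs called 1630 genes (9.48% of those tested), 948 above and 682 below 0. Without E0771 neutrophil 1 it called 568 and 319, and with factors from genes above background 196 and 3867, so its counts rest on the scaling and on single libraries: leaving out 1 library gave 481 to 2262 above 0 and 201 to 1540 below, the most without AT3 neutrophil 2, and the fewest without 2208L neutrophil 2 above 0 and without E0771 neutrophil 2 below it. None of the 42 interferon genes were higher in T11 against E0771 and 26 were lower. Among genes named by rule, Met (5.91 ± 0.61 log2), H19 (5.60 ± 0.69), Igfbp5 (5.15 ± 0.55), Wfdc18 (4.90 ± 0.62) and Mfge8 (4.73 ± 0.52) lay highest in 2208L against AT3 relative to T11 against E0771. S100a4 (-5.83 ± 0.56 log2), Col3a1 (-2.26 ± 0.46), Rdh12 (-2.15 ± 0.54), Slc30a4 (-1.86) and Tgm1 (-1.82) lay lowest. Tgm1 did not pass without 2208L neutrophil 1 or 2, AT3 neutrophil 2, T11 neutrophil 2 or 3, or any 1 of the E0771 libraries (adjusted p up to 0.124), and Rdh12 not without E0771 neutrophil 2 (adjusted p = 0.0503).

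**Figure D5:**
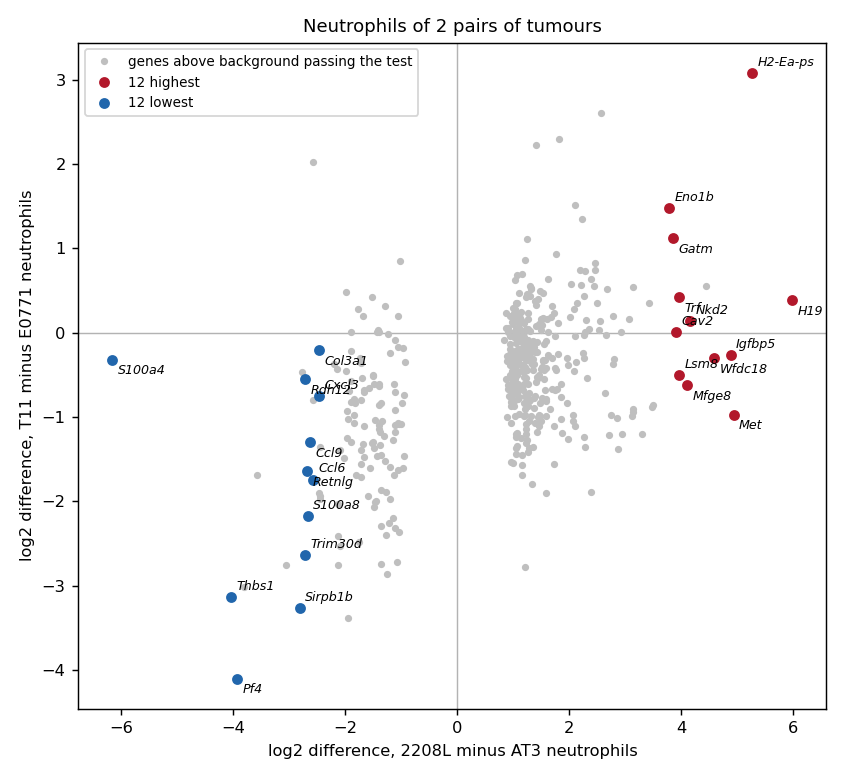
Log2 difference, T11 minus E0771 neutrophils, against log2 difference, 2208L minus AT3 neutrophils, for genes above background that pass the test in 2208L against AT3; the 12 highest and 12 lowest genes are named. Pf4, Thbs1, Sirpb1b and Trim30d lie low on both axes, between -2.64 and -4.10 on the vertical one, while S100a4 lies at -6.15 on the horizontal and -0.32 on the vertical axis.

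Macrophages sorted from the same tumours gave a comparison within line and strain. The column names of the neutrophil and macrophage libraries of a tumour begin with the same numbers. Whether these mark the same animals is not stated, and the main test did not pair them. 214 of the genes higher in 2208L neutrophils and 126 of the lower ones were called the same way in macrophages, 27.8% and 21.5% of the neutrophil calls, and 19.8% and 15.4% of the macrophage calls. The test of the difference between the 2 cell types called 933 genes of 19056 (4.9%), 466 above and 467 below 0; without 2208L neutrophil 2 it called 165 and 172, and without AT3 neutrophil 2 1196 and 1027. With factors from genes above background it called 168 above and 1906 below 0, and DESeq2 called 538 and 1133. Lcn2 and Slpi, both of secretory cells and neutrophils, lay low, at -5.42 ± 0.71 and -4.99 ± 0.73 log2: in macrophages they were higher in 2208L by 7.52 and 3.14 log2. Pglyrp1, a granule peptidoglycan-binding protein gene, lay at -5.91 ± 1.15 and Retnlg at -5.14 ± 1.02 log2. Alox5, the 5-lipoxygenase, lay high at 4.30 ± 0.46 log2. Its levels in neutrophils, 175, 273 and 198 CPM in 2208L and 112, 187 and 155 CPM in AT3, did not pass the test (adjusted p = 0.277), whereas 2208L macrophages had less of it (-3.79 ± 0.35 log2). Cass4, an adhesion scaffold gene, was higher in 2208L neutrophils (1.73 ± 0.34 log2) and lower in 2208L macrophages (-2.48 ± 0.34 log2), a difference of 4.22 ± 0.45 log2. The receptor gene Gpr84 (3.40), the carbonyl reductase gene Cbr2 (3.24) and the scaffold gene Ahnak (3.14) completed the 5 highest.

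Of H2-Ea-ps, 4363 counts stood in 2208L macrophages and none in AT3 macrophages, so it was at least 1769-fold higher in 2208L macrophages, taking 3 counts over the group.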

How the data were processed

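RNA-seq counts per gene were analysed for 30 of the 48 libraries: neutrophils and macrophages sorted from 4 mouse tumours, and the cultured 2208L and AT3 lines; 18 other columns were not used. The values are counts as deposited by the authors, not normalized. Per the submitters' processing notes, bcl2fastq 2.17 and STAR 2.4.2a were used with the mm10 build; the counting program, annotation and strand setting are not given in the sources used here, so overlapping, antisense and near-identical genes may share reads.

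Rn45s was left out of library sizes and tests. Genes were kept with filterByExpr (minimum count 10, minimum total 15), scaled by TMM, and tested with edgeR 4.0.16 (R 4.3.3) in a quasi-likelihood model over the 12 neutrophil libraries (24 sorted libraries for the interaction with macrophages), with Benjamini-Hochberg adjustment at 0.05. DESeq2 1.42.0 was an alternative; others were RLE factors, no filter, only genes above background, factors from those genes, Rn45s kept, only the 6 libraries, a replicate block, and leaving out each library. Named genes were the 12 highest and 12 lowest passing genes with a mean log2 CPM of at least 5, at least 10 times background and no overlap, up to 4 a direction from each list, 5 a direction for each interaction, and a fixed set whatever their result. Marker genes and the chromosome 6 genes were named after their values were seen. The groups, lists and genes were chosen with earlier results of these data known. Coordinates are from GENCODE M21; 22750 of 24054 genes matched by symbol, 970 by synonym. The test was checked on simulated data with 100 genes changed 2-fold and 100 changed 4-fold. The neutrophil test recovered 18% of the 2-fold and 79% of the 4-fold changes, with 2 false calls. The interaction with macrophages recovered 0% and 36%, with 1 false call. Genes that did not pass may therefore still differ. Whether these recovery rates and false calls carry over to the deposited libraries was not tested. In those, genes above background held 38.0% to 63.0% of the counts in AT3 neutrophils and 54.3% to 59.4% in 2208L neutrophils. The higher calls numbered 770 on the usual scale and 259 with factors from genes above background.

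Deviations of same-numbered 2208L and AT3 libraries from their group means had correlations of 0.083, 0.22 and -0.003. For 2208L neutrophils 1 and 2 this was the highest value over the AT3 libraries. With 3 libraries a side these values cannot decide whether the numbers mark pairs, and the main test did not use them as pairs. SEs of log2 differences come from the edgeR quasi-likelihood fit and include the spread between libraries, and SDs are over 3 libraries. The limit for a count of 0 (3 counts) covers counting error only.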

Additional observations from a re-analysis of the deposited data

Results flagged for a closer look

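Differences between 2208L and AT3 that were not alike in neutrophils and macrophages, by the edgeR interaction test with Benjamini-Hochberg adjustment, are given here as the neutrophil difference minus the macrophage difference in log2 units. Trf (1.74), Cav2 (2.0), Alox5 (4.3), Cass4 (4.22), Gpr84 (3.4), Cbr2 (3.24) and Ahnak (3.14) lay above 0. Rdh12 (-4.16), Retnlg (-5.14), S100a8 (-2.96), Slpi (-4.99), Lcn2 (-5.42) and Pglyrp1 (-5.91) lay below 0. H2-Ea-ps lay at -8.22, a fitted value that is no bound, since all AT3 macrophage libraries had 0 counts.

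Differences between 2208L and AT3 neutrophils that were unlike those between T11 and E0771 neutrophils are given as the first minus the second. H19 (5.6), Met (5.91), Igfbp5 (5.15), Wfdc18 (4.9), Nkd2 (4.03), Mfge8 (4.73), Lsm8 (4.47), Trf (3.55), Cav2 (3.9), Gatm (2.74) and Eno1b (2.31) lay above 0. S100a4 (-5.83), Rdh12 (-2.15), Col3a1 (-2.26), Tgm1 (-1.82) and Slc30a4 (-1.86) lay below 0.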

How the results depend on the processing

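With only genes above background tested, which also sets the scale on them, 305 genes were higher and 346 lower in 2208L neutrophils. With only the 6 libraries 396 were higher and 302 lower. In that fit fewer libraries estimate the spread, and the filter and factors are set anew. With factors from genes above background the higher count was 259. The interaction with T11 and E0771 gave 189 above and 195 below 0 with only genes above background, 196 and 3867 with factors from them, and 409 below 0 with DESeq2. The interaction with macrophages gave 120 and 147, 168 and 1906, 746 below 0 with RLE factors and 1133 below 0 with DESeq2. For these changes of filter, scaling, tool and set of libraries the cause was not tested. Leaving out 1 library gave 349 to 1775 higher and 224 to 1333 lower genes, 481 to 2262 above and 201 to 1540 below 0 for the interaction with T11 and E0771, and 165 to 1196 above and 172 to 1236 below 0 for that with macrophages. Genes that did not pass in the comparison as reported changed sign: Csf3r to 0.044 without a filter and 0.031 with the replicate block, Il1b to -0.028 with only genes above background and with factors from them, and Vegfa to -0.003 with only genes above background. With 1 library left out Csf3r ran from -0.417 to 0.498, Il1b from -0.196 to 0.613 and Vegfa from -0.152 to 0.845, which passed (adjusted p = 0.0407 by edgeR, without AT3 neutrophil 2).

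With the replicate number as a block, 699 genes were higher and 474 lower; 2 of the 3 2208L libraries correlated best with the AT3 library of their own number. Of 145 named genes over 8 other settings, 1025 results kept direction and call, 69 lost the call, 6 gained it and 5 changed sign. Depth limits what can be seen of genes near background.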
